A study of Mus musculus with 11 samples.

Results

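The Hedgehog genes described here are the ligands Shh, Ihh, and Dhh, the receptors Ptch1 and Smo, the ligand-binding inhibitor Hhip, and the transcription factors Gli1, Gli2, and Gli3. They were taken by name from a counts table of 28284 genes, in which 8 of the 9 were listed. Shh was not analysed here. mRNA had been sequenced in bulk from 11 lines of cultured OvTrpMyc cells, 1 library each, established from 7 mice. Each value is given as CPM, counts per 1000000 counts of the library.

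All lines share 1 genotype, labelled Ovgp1-Trp53-R270H-Myc, in which the oviduct promoter Ovgp1 drives mutant p53 and Myc from a transgene. The lines were untreated, dividing cultures in RPMI 1640, grown from minced tissue of female mice, and no wild-type line was part of the table. From the ovaries, which the study's methods excised together with the fallopian tubes, came 7 lines: F318 ROV and F318 LOV, F364 ROV and F364 LOV, F339 ROV, F319 ROV, and F326 ROV. From the uterus came 2 lines, 1 each of mice F319 and F333, and there was 1 line from a splenic tumor of F326 and 1 from a peritoneal tumor of F361. Per the study's methods, the F361 line had lost expression of the mutant p53 copy. A pair of lines came from each of the mice F364, F326, F319, and F318. The age of the mouse behind each line was not given in the sources used here.

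Hedgehog ligands are secreted proteins that bind Ptch1 on the receiving cell. Unbound Ptch1 holds Smo inactive, and ligand releases Smo to act at the primary cilium, where Gli2 and Gli3 are kept from being processed into repressors and Gli1, itself a target gene, is induced. Ptch1 and Hhip are also targets and limit the signal. In the mouse ovary, Dhh and Ihh come from granulosa cells and act on theca and stromal cells, and in the uterus Ihh passes from the epithelium to the stroma.

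Library totals ranged from 13580525 to 27044598 counts, so that 3 counts, taken as the level of detection, correspond to 0.111 to 0.221 CPM. The libraries that the labels number 1 to 7 stood apart from those numbered 8 to 11, which are both uterus lines, F318 LOV, and F339 ROV. A muscle fiber list of 28 listed genes took 7.71% to 14.6% of the counts in libraries 1 to 7 and 0.161% to 1.25% in libraries 8 to 11. The 4 listed Y-linked genes summed to 128 to 174 CPM in the first set and to 1.75 to 19.2 CPM in the second, although the mice were female. The 11 mesenchymal markers summed to 1433 to 15910 CPM in the first set and to 20272 to 36014 CPM in the second. The labels call the cells ovarian cancer. The 11 epithelial markers summed to 6.28 to 168 CPM in the first set and to 11.7 to 44.8 CPM in the second, and keratins led where they were highest, with Krt18 at 67.9 CPM and Krt8 at 52.7 CPM in F319 ROV and Krt7 at 40.5 CPM in the F333 uterus line. Epcam was at most at 2.12 CPM and Cdh1 at most at 3.68 CPM. Each uterus line fell in the second set and each tumor line in the first. Values are therefore given within each set, and the part of the other cell types' RNA in them was not tested. In bulk RNA, fewer cells of a type and less RNA per cell cannot be told apart.

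Dhh, the ligand best known from the gonads and from Schwann cells of peripheral nerves, was the only ligand measured above a few counts, and most of it came from 1 line. It was at 33.7 CPM in F326 ROV (505 counts, 95% Wilson interval 30.9 to 36.8) and at 6.85 CPM in F364 ROV (108 counts). It reached 2.33 CPM in F319 ROV, 1.58 CPM in F364 LOV, 0.91 CPM in F318 ROV, 0.74 CPM in the F361 peritoneal tumor line, and 0.51 CPM in the F326 splenic tumor line. F339 ROV had 4 counts (0.16 CPM), F318 LOV had 2, and both uterus lines had 0. F326 ROV thus held 69.2% of the 730 Dhh counts, and its interval and that of F364 ROV did not overlap with those of any other line. All 7 libraries numbered 1 to 7 lay above all 4 libraries numbered 8 to 11. The nearest lines of the sets were not separated beyond counting error, since the intervals of the F326 splenic tumor line (8 counts) and F339 ROV overlapped. Wilson intervals cover counting error only, since reads carried no molecular identifiers.

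Marker lists of several cell types, among them granulosa and Schwann cells, which are known to make Dhh, are given beside the Dhh level. Of 8 granulosa and theca markers, 6 were listed. Their summed level was 6.46 to 92.3 CPM in libraries 1 to 7, with the highest sum in F326 ROV, and 3.70 to 9.51 CPM in libraries 8 to 11. F364 LOV had the next highest sum, 28.5 CPM, and F364 ROV had 26.7 CPM, although Dhh was lower in the former. In F326 ROV, most of the sum came from Star, which brings cholesterol into mitochondria for steroid synthesis, at 48.7 CPM, and from the inhibin gene Inha at 32.1 CPM, with Amh at 3.94 CPM. Foxl2, the factor that keeps granulosa cell identity, was at 7.54 CPM in F326 ROV and 7.23 CPM in F364 ROV, while Cyp17a1, the androgen-making enzyme of theca cells, was at 0 in both and the luteinizing hormone receptor gene Lhcgr at 0 in the former. The 5 Schwann cell markers, all listed, also summed highest in F326 ROV, at 93.9 CPM. The next highest sum, 38.4 CPM, was in the F361 peritoneal tumor line, where Dhh was at 0.74 CPM, and F364 ROV was at 25.5 CPM. In libraries 8 to 11 the sum was 2.22 to 8.26 CPM. Sox10, the defining factor of that lineage, was at 3.07 CPM in F326 ROV and at 0.51 CPM in F364 ROV. The 6 blood markers also summed highest in F326 ROV, at 22.1 CPM. The 5 endothelial markers summed to 68.1 to 299 CPM in the first library set and to 2.62 to 72.6 CPM in the second, with F364 LOV highest and F326 ROV at 253 CPM. The part of such cells in the Dhh level was not tested. Dhh overlaps Rhebl1 on the same strand and Gm49442 on the other. Rhebl1 was at 2.47 CPM in F326 ROV and ranged from 2.34 to 18.9 CPM, with its highest value in the F319 uterus line. The part of reads from these genes in the Dhh count was not tested.

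Ihh, the ligand of cartilage and of the uterine epithelium, was at the level of detection. It had 21 counts over all lines, at most 6 in 1 library (0.27 CPM in F319 ROV), and more than 3 in only 2 lines. It was at 0 in F364 LOV, F339 ROV, and both uterus lines, where a count of 0 allows up to 0.190, 0.118, 0.111, and 0.139 CPM. No order among the lines can be read from such counts.

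**Figure D1:**
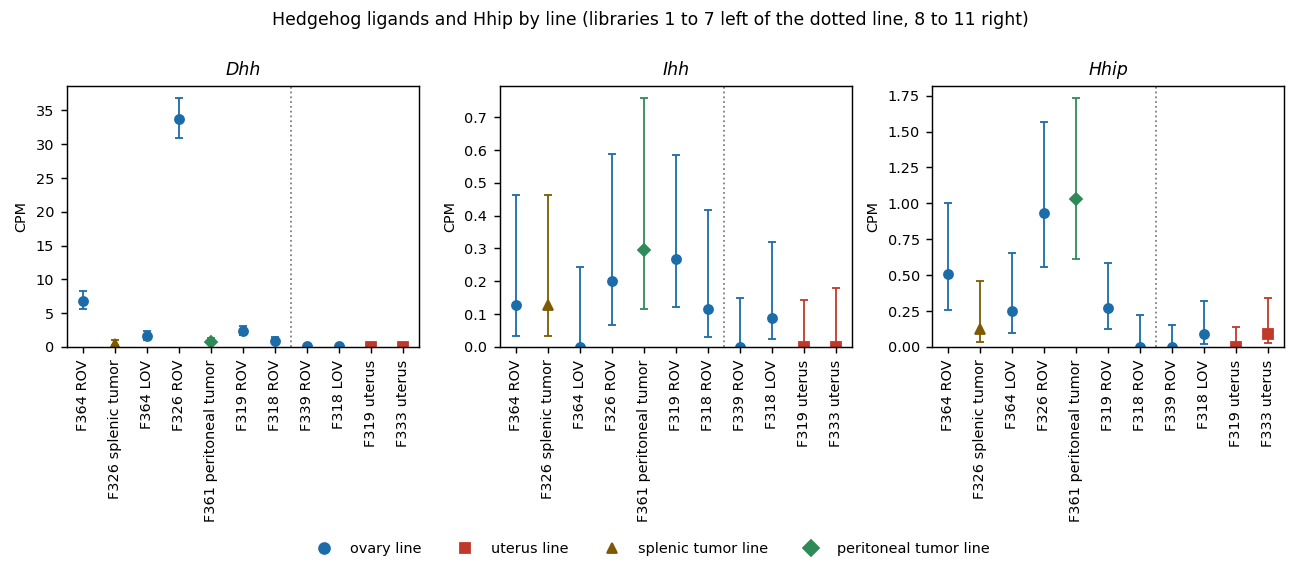
Levels of Dhh, Ihh, and Hhip in CPM on linear axes for each of the 11 lines, with 95% Wilson intervals (counting error only) as bars and libraries 8 to 11 right of the dotted line. Dhh reached 33.7 CPM in F326 ROV and at most 6.85 CPM elsewhere, while Ihh and Hhip stayed at or below 0.29 and 1.03 CPM.

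Ptch1, the ligand receptor and a target of the pathway, was measured in every line. Within libraries 1 to 7 it was at 9.43 CPM in the F326 splenic tumor line, 16.1 CPM in the F361 peritoneal tumor line, 16.7 CPM in F319 ROV, 19.2 CPM in F364 LOV, 20.0 CPM in F364 ROV, and 27.9 CPM in both F326 ROV and F318 ROV. In libraries 8 to 11 it was at 26.0 CPM in the F319 uterus line, 31.2 CPM in the F333 uterus line, 35.1 CPM in F318 LOV, and 126 CPM in F339 ROV (95% Wilson interval 122 to 131). F339 ROV stood far above the rest, and the splenic tumor line stood below them, each with an interval apart from its neighbor's. The library sets overlapped, since the F319 uterus line lay below F326 ROV and F318 ROV.

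Smo, which passes the signal on once Ptch1 is bound, had the highest level per exon length of all members in 10 lines. Its median was 12.1 CPM per kb of exon, against 1.84 for Ptch1, 1.22 for Gli3, and 0.507 for Gli1. In F326 ROV, the level per exon length of Dhh was slightly higher, at 7.66 against 7.28 CPM per kb for Smo. In libraries 1 to 7, Smo was at 13.6 CPM in the F361 peritoneal tumor line and at 32.5 CPM in F364 LOV, 36.6 CPM in F364 ROV, 38.4 CPM in the F326 splenic tumor line, and 40.9 CPM in F326 ROV. F319 ROV and F318 ROV were higher, at 68.0 and 82.5 CPM. In libraries 8 to 11, the level was 123 CPM in the F319 uterus line, 194 CPM in the F333 uterus line, 209 CPM in F318 LOV, and 210 CPM in F339 ROV. Each of these exceeded each of libraries 1 to 7. The means were 44.6 CPM ± 23.1 (SD, n = 7) and 184 CPM ± 41.4 (SD, n = 4), a ratio of 4.12.

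Hhip, which binds ligand at the cell surface and so limits signaling, had 52 counts in all. It passed 3 counts in 5 lines, all of them libraries 1 to 7, with 1.03 CPM in the F361 peritoneal tumor line, 0.93 CPM in F326 ROV, 0.51 CPM in F364 ROV, 0.27 CPM in F319 ROV, and 0.25 CPM in F364 LOV. The other 6 lines had 0 to 2 counts. The counting intervals of neighbors in this order overlapped.

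**Figure D2:**
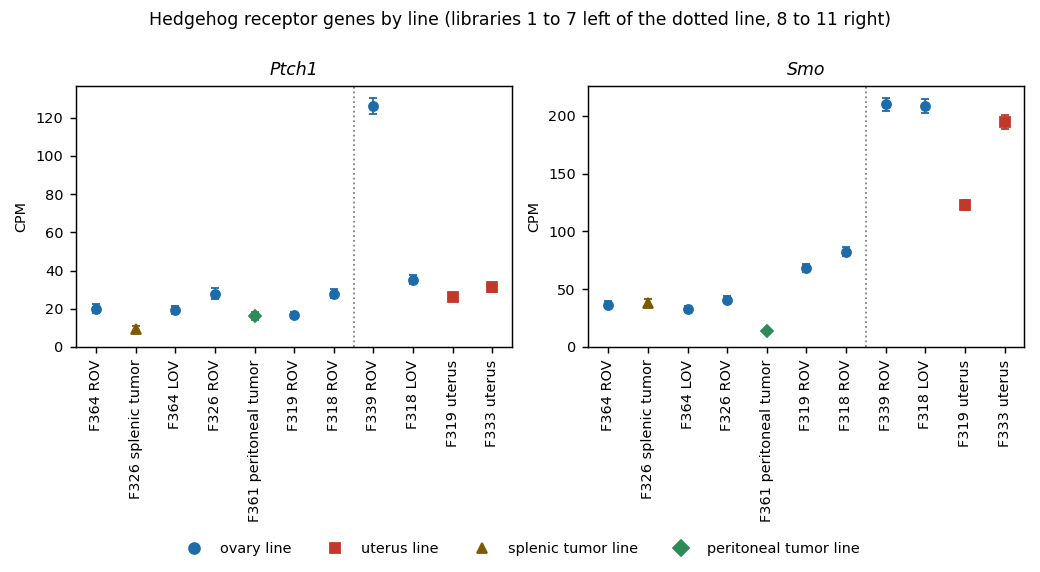
Levels of Ptch1 and Smo in CPM on linear axes for each of the 11 lines, with 95% Wilson intervals (counting error only) as bars and libraries 8 to 11 right of the dotted line. Smo was at 123 CPM or more in all 4 libraries on the right and at 82.5 CPM or less in all 7 on the left, while Ptch1 stood out in F339 ROV at 126 CPM.

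Among the Gli genes, Gli1 varied least and is the member most often read as a sign of pathway activity. It was lowest in the F326 splenic tumor line at 1.01 CPM, the F319 uterus line at 1.11 CPM, and F339 ROV at 1.37 CPM. F318 ROV, F364 ROV, and F364 LOV were at 2.34, 2.35, and 2.53 CPM. F318 LOV was at 3.06 CPM, F319 ROV at 3.94 CPM, the F361 peritoneal tumor line at 4.2 CPM, F326 ROV at 4.47 CPM, and the F333 uterus line at 6.36 CPM (95% Wilson interval 5.38 to 7.52). The counting intervals of all neighbors in this order overlapped, although those of its ends, 6.28-fold apart, did not. The SD of log2(CPM + 1) over the lines was 0.60, the 38.9 percentile among 14665 genes with a mean of at least 1 CPM, whose median SD was 0.73. The line with the highest Ptch1, F339 ROV, thus ranked 9 of 11 for Gli1.

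Gli2, the main activator of the family, spanned a 168-fold range. It was at 24.8 CPM in F318 LOV, 15.6 CPM in F318 ROV, 10.04 CPM in F339 ROV, and 6.01 CPM in the F326 splenic tumor line, with none of these intervals overlapping. F319 ROV, F326 ROV, F364 LOV, the F361 peritoneal tumor line, the F333 uterus line, and F364 ROV followed at 2.91, 2.80, 2.66, 1.91, 1.72, and 0.76 CPM, each with an interval that overlapped its neighbor's. The F319 uterus line was last, with 4 counts (0.15 CPM). Both lines of mouse F318 were therefore the highest, although their libraries belong to different sets. Its SD of log2 level lay at the 85.95 percentile of the same genes.

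Gli3, the main repressor of the family, was high in 3 of libraries 8 to 11 and low in the other one. It was at 73.8 CPM in the F319 uterus line, 57.4 CPM in F339 ROV, and 52.2 CPM in F318 LOV, but at 1.86 CPM in the F333 uterus line. In libraries 1 to 7, F318 ROV was highest at 22.0 CPM. F319 ROV, the F326 splenic tumor line, F364 LOV, and F364 ROV lay close together at 12.9, 11.7, 10.3, and 10.2 CPM, F326 ROV was at 4.74 CPM, and the F361 peritoneal tumor line was at 1.47 CPM. The highest and lowest lines were 50.1-fold apart, and the SD of log2 level lay at the 92.5 percentile.

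**Figure D3:**
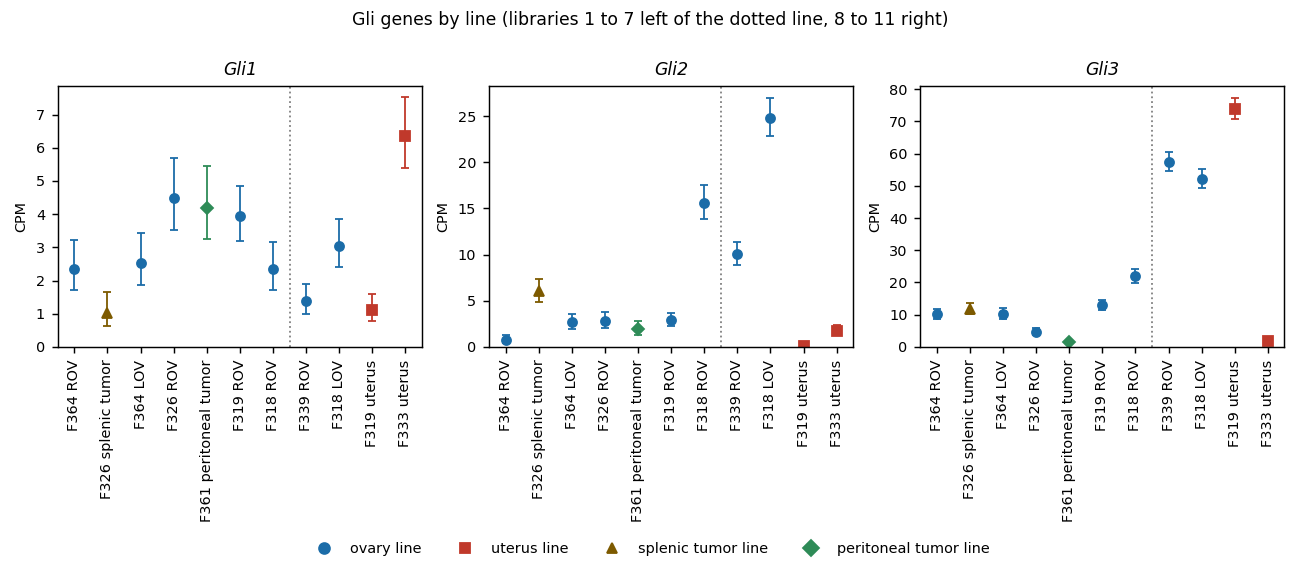
Levels of Gli1, Gli2, and Gli3 in CPM on linear axes with a separate scale for each gene, for each of the 11 lines, with 95% Wilson intervals (counting error only) as bars and libraries 8 to 11 right of the dotted line. Gli1 stayed between 1.01 and 6.36 CPM, Gli2 was highest in the 2 lines of mouse F318, and Gli3 ranged from 1.47 to 73.8 CPM.

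The balance of the Gli genes was compared per exon length, where the summed Gli level per line is split into shares of CPM per kb. Gli3 held the largest share in 8 lines. It reached 96.9% in the F319 uterus line and 77.5% in F339 ROV, and it was lowest among these 8 in F318 ROV at 45.6%, with Gli2 close behind at 45.1%. Gli1 held the largest share in the 3 other lines, with 49.8% in F326 ROV, 66.0% in the F361 peritoneal tumor line, and 74.2% in the F333 uterus line. The uterus lines were therefore at opposite ends, and the Gli1 level itself differed between them less, by CPM of 1.11 and 6.36, than Gli3, by 73.8 and 1.86. Because shares sum to the whole, a low Gli3 level raises the Gli1 share without any change in Gli1.

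**Figure D4:**
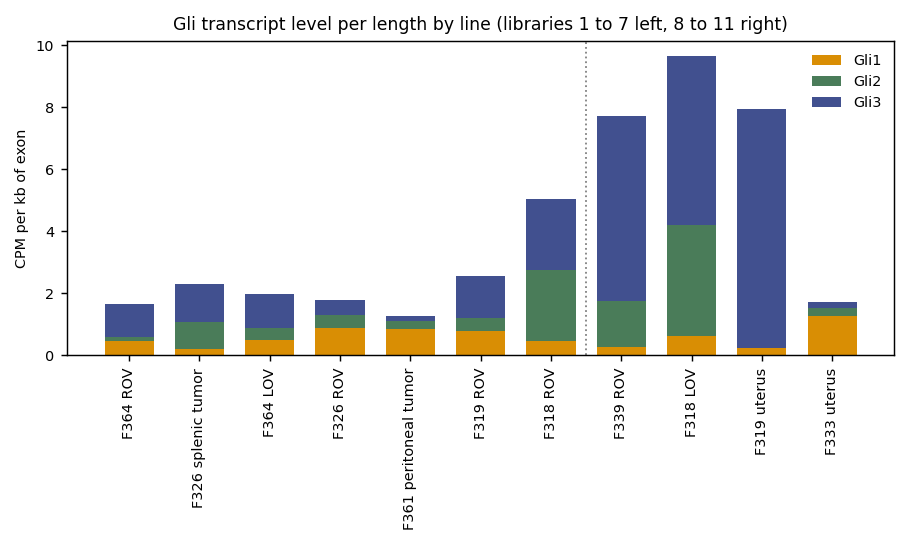
Stacked bars of Gli1, Gli2, and Gli3 in CPM per kb of exon for each line, starting at 0, with libraries 8 to 11 right of the dotted line. Gli3 filled 96.9% of the bar of the F319 uterus line, and Gli1 filled 74.2% of that of the F333 uterus line.

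Promoter letters are shown for Dhh and Ptch1, the members with 1 line far above the others, as the 100 bases before the RefSeq start on GRCm38.p6. RefSeq promoters were matched for 7 members: Ihh, Dhh, Ptch1, Smo, Hhip, Gli2, and Gli3. Capitals mark a GC box, GGGGCGGGG, searched on both strands.
Dhh, chr15:98898541-98898640, minus strand: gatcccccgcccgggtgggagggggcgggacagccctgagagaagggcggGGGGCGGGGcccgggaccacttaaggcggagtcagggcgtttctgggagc
Ptch1, chr13:63565736-63565835, minus strand: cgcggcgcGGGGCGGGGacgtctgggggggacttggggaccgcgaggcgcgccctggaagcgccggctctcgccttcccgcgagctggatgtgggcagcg
In the 250 bases before the start, the GC box was present in 4 members (Dhh, Ptch1, Hhip, and Gli3) and in 10.4% of all 32851 promoters. With 1 mismatch allowed, it was in 6 members and in 36.4% of all promoters. The member windows were 59.6% to 78.4% G and C, against a median of 52.4% over all promoters. The GC box holds only these letters, and the part of base content in its count was not tested. The letters of the Gli binding motif, GACCACCCA on either strand, were in no member's window and in 0.225% of all promoters. With 1 mismatch allowed they were again in no member's window, against 5.79% of all. The printed Ptch1 window lies inside the longer gene that GENCODE M21 annotates from 63508328 to 63573598.

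Over the 14665 genes with a mean of at least 1 CPM, 27.8% had every one of libraries 8 to 11 above every one of libraries 1 to 7, and 17.1% had every one below. Of the members, 6 passed that mean, and Ihh and Hhip did not. Smo was the 1 member above and Dhh the 1 member below, while Ptch1, Gli1, Gli2, and Gli3 overlapped. For Dhh, the counting intervals of the F326 splenic tumor line and F339 ROV overlapped. Without the F319 uterus line, Ptch1 was above as well, and without the F333 uterus line, Gli3 was. With TMM scaling in place of library totals, the background shares were 17.5% above and 24.2% below and the median difference of all genes moved from 0.39 to −0.04 on the log2 scale. Smo and Dhh kept these places under that scaling. On log2(CPM + 1), libraries 8 to 11 minus 1 to 7 came to 2.16 for Smo, 1.58 for Gli3, 1.19 for Ptch1, −0.12 for Gli1, and −1.85 for Dhh. It was 0.31 for Gli2, which turned to −0.01 under TMM, to −0.44 without F318 LOV, and to −0.03 without F339 ROV, and rose to 1.06 without the F319 uterus line. Without F339 ROV the value for Ptch1 was 0.69, and without the F333 uterus line that for Gli3 was 2.69. The value for Gli1 turned to 0.07 without F339 ROV and to 0.13 without the F319 uterus line. Gli1 had the same mean in both sets within 0.01 CPM, 2.98 CPM ± 1.26 (SD, n = 7) and 2.97 CPM ± 2.42 (SD, n = 4). Without the F333 uterus line the latter mean was 1.85 CPM, and under TMM the log2 difference was −0.44.

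Other genes of the pathway were taken from lists of ligand release, coreceptors, signal regulators, cilium, reported targets, and female tract factors, with 48 genes listed and 44 at a mean of at least 1 CPM. Of these 44, 15 were above in all of libraries 8 to 11 (34.1%) and 3 were below (6.82%), beside the 27.8% and 17.1% of all genes. With TMM scaling, 12 were above (27.3%) and 4 below (9.09%), beside 17.5% and 24.2% of all genes. Sufu, Ulk3, and Dync2h1, named next, then overlapped, and Spop, which targets Gli proteins for degradation, was below. Among 15 signal regulators, 6 were above. These were Sufu, the cytoplasmic Gli inhibitor (8.39 to 29.3 CPM in libraries 1 to 7, 30.3 to 58.5 CPM in libraries 8 to 11), Kif7, Gpr161, Prkar1a, Ulk3, and Smurf1. For Sufu, Kif7, Gpr161, and Ulk3, the counting intervals of the nearest lines of the library sets overlapped, while those of Prkar1a and Smurf1 did not. Among 8 cilium genes, 4 were above: the cilium GTPase Arl13b, the transport motor genes Kif3a and Dync2h1, and Tulp3, which carries receptors into the cilium (11.3 to 55.7 CPM against 74.8 to 99.2 CPM). The intraflagellar transport gene Ift88 overlapped, at 5.34 to 8.12 and 6.81 to 11.3 CPM. Of the ligand release genes, Disp1, which frees lipid-bound ligand, was above (6.41 to 24.2 CPM against 36.9 to 81.4 CPM). Of 5 coreceptor and binding genes, none was above, and Gpc3, a glypican that competes for ligand, was below (1.66 to 8.47 CPM against 0.08 to 0.56 CPM).

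Of 8 reported targets, Osr1, Ccnd1, and Snai2 were above. Mycn was counted as below, at 0.13 to 12.6 CPM against 0 to 0.08 CPM, but F364 LOV, F339 ROV, and the F319 uterus line each had 2 counts, under the level of detection, so that no order can be read there. Bmp4, which encodes a growth factor, overlapped and was highest in F319 ROV at 103 CPM and lowest in the F319 uterus line at 0.18 CPM. Among the female tract factors, Nr2f2, which acts downstream of uterine Ihh in the stroma, was above (13.0 to 69.3 CPM against 132 to 175 CPM), and Bmp2 was counted as below (0.57 to 3.61 CPM against 0 to 0.52 CPM), although the counting intervals of F318 ROV and the F319 uterus line, with 10 and 14 counts, overlapped. The progesterone receptor Pgr was highest in the F319 uterus line at 58.2 CPM and was at 0 in F326 ROV and in F319 ROV, the ovary line of the same mouse.

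The comparison of site of origin asked whether lines from the uterus differ from lines from the ovary. In edgeR's quasi-likelihood test, 7 members were tested (all but Ihh) and 0 had an adjusted p under 0.05, as did 0 of 17446 genes (0%). At an unadjusted p under 0.05 there was 1 member, Dhh, beside 2308 genes (13.2%). Dhh was at 0 counts in both uterus lines and between 0.09 and 33.7 CPM in the ovary lines. The lowest ovary line, F318 LOV, had 2 counts, under the level of detection, so the groups were not separated beyond counting error. Of the 6 members with a mean of at least 1 CPM, this 1 lay nominally below all ovary lines in both uterus lines, as did 2.87% of all such genes, and 0 members lay above, beside 5.27% of genes. The floor of 3 counts per library was a mean of 0.125 CPM in the uterus lines. The mean ovary level of Dhh, 6.52 CPM, was 52.1-fold above this floor, and 15.9-fold above it without F326 ROV. These ratios are no lower limits, since the Wilson intervals of 0 counts reach 0.142 and 0.178 CPM in the F319 and F333 uterus lines. The higher ovary levels also came from libraries 1 to 7. In libraries 8 to 11, the ovary lines F339 ROV and F318 LOV were at 0.16 and 0.09 CPM. Their intervals overlapped those of both uterus lines, so no fold difference can be read within that set. The edgeR adjusted p of Dhh was 0.359. DESeq2 gave Dhh an adjusted p of 0.00166, the 1 member among 1315 genes it called (4.73%). Both ovary lines that share library numbers 8 to 11 with the uterus lines had 4 counts of Dhh or fewer. With the library set as a covariate, Dhh had an edgeR adjusted p of 1.

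Gli2 was lower in the uterus lines by a log2 fold change of −3.16 ± 1.43 (SE), with an edgeR adjusted p of 0.359. The uterus lines were at 0.15 and 1.72 CPM and the ovary lines at 0.76 to 24.8 CPM, so the groups overlapped through F364 ROV. The log2 difference was −5.91 without the F333 uterus line and −2.24 without the F319 uterus line. Within libraries 8 to 11, the log2 difference was −4.15 ± 1.31 (SE), from both uterus lines against 10.04 and 24.8 CPM in F339 ROV and F318 LOV, with an edgeR adjusted p of 0.9998. Ptch1 came to −0.52 ± 0.67, Smo to 0.67 ± 0.63, Hhip to −2.80 ± 1.99, Gli1 to 0.23 ± 0.71, and Gli3 to 0.50 ± 1.04 (log2 fold change ± SE), with edgeR adjusted p-values of 0.437 to 0.855. Within libraries 8 to 11, Smo came to −0.36 and Gli3 to −0.61, the opposite direction, and Ptch1 to −1.46. Leaving out F339 ROV turned Ptch1 to 0.023, and the mouse as a block turned it to 0.36. Leaving out the F319 uterus line turned Gli3 to −3.64, and leaving out the F333 uterus line turned Gli1 to −1.67.

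Lines from tumors outside the gynecologic tract were compared with ovary lines of libraries 1 to 7, 2 against 5. In edgeR's quasi-likelihood test, 0 of 7 members and 0 of 16299 genes (0%) had an adjusted p under 0.05. No member reached an unadjusted p under 0.05, beside 1636 genes (10%) that did. DESeq2 called 349 genes (1.35%), none of them a member. Dhh was at 0.51 and 0.74 CPM in the tumor lines and 0.91 to 33.7 CPM in these ovary lines, and Ptch1 at 9.43 and 16.1 CPM against 16.7 to 27.9 CPM. These 2 of the 6 members with a mean of at least 1 CPM lay below every such ovary line in both tumor lines, as did 13.6% of all genes with that mean, and 0 members lay above, beside 4.2% of genes. For both genes, the counting interval of the F361 peritoneal tumor line overlapped that of the lowest ovary line. The log2 fold changes were −3.77 ± 1.70 (SE, edgeR adjusted p = 0.502) and −0.67 ± 0.33 (SE, edgeR adjusted p = 0.522). Without F326 ROV, Dhh came to −2.12, while Ptch1 came to −1.10 without the F361 peritoneal tumor line and to −0.34 without the splenic tumor line. Smo came to −0.82 ± 0.45 (SE, edgeR adjusted p = 0.558), with the splenic tumor line at 38.4 CPM inside the ovary range, and ranged from −1.76 without that line to −0.26 without the F361 peritoneal tumor line. Gli1, Gli2, Gli3, and Hhip came to −0.14, −0.06, −0.68, and 0.64, and each changed direction when 1 line was left out.

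In neither comparison did a gene of the pathway lists pass the test, with 47 tested in each. At an unadjusted p under 0.05, there were 5 in the uterus comparison (10.6%, against 13.2% of all genes), among them Ccnd1 and Prkar1a, which were higher, and Bmp4 and Scube1, which were lower, and 3 in the tumor comparison (6.38%, against 10% of all genes), where Ccnd1, Ccnd2, and Smurf1 were lower. Ccnd1, the G1 cyclin, was at 7.22 CPM in the F361 peritoneal tumor line and 22.0 CPM in the F326 splenic tumor line against 58.1 to 103 CPM in the ovary lines of libraries 1 to 7 (edgeR adjusted p = 0.219).

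**Figure D5:**
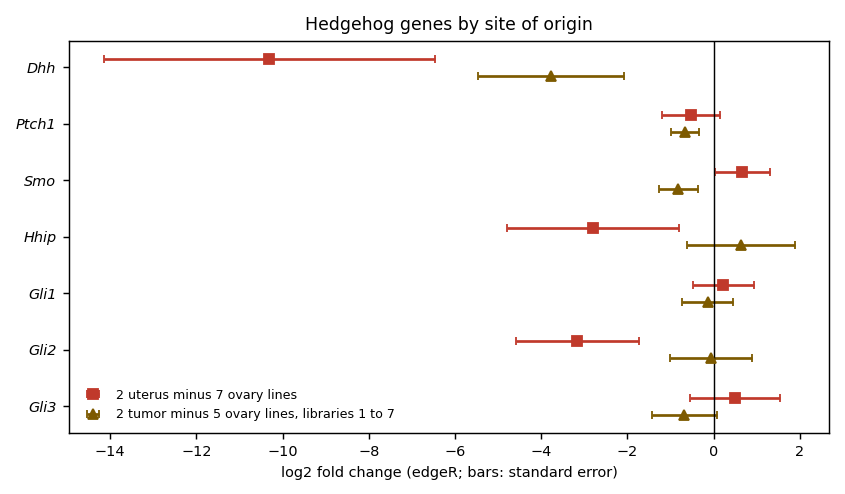
Log2 fold change from edgeR for 7 members, with a line at 0. Squares show uterus lines against all ovary lines, and triangles show tumor lines against ovary lines of libraries 1 to 7. Bars are standard errors, derived as the absolute log2 fold change over the square root of the F statistic. No member passed an adjusted p of 0.05, and the fitted value of Dhh in the uterus lines, where both counts were 0, depends on the prior count and is no measure of size.

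Lines of the same mouse were set side by side, with no test since each is 1 library. In mouse F326, Dhh was 66.6-fold higher in the ovary line than in the splenic tumor line (505 and 8 counts), Gli1 4.42-fold higher, and Ptch1 2.96-fold higher. Smo differed 1.07-fold, and Gli2 and Gli3 were 2.14-fold and 2.47-fold lower in the ovary line. These libraries share the set 1 to 7. In mouse F364, whose libraries share that set too, Gli3 differed 1.004-fold, Ptch1 1.05-fold, Gli1 1.08-fold, and Smo 1.12-fold between the 2 ovary lines, while Dhh was 4.33-fold and Gli2 3.49-fold apart in opposite directions.

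The other pairs cross the library sets. In mouse F319, the uterus line had Gli3 5.73-fold higher, Smo 1.81-fold higher, and Ptch1 1.55-fold higher than the ovary line. Gli2 was 19.7-fold lower there (4 and 65 counts) and Gli1 3.55-fold lower, and Dhh had 52 counts in the ovary line and 0 in the uterus line. In mouse F318, LOV exceeded ROV 2.53-fold for Smo, 2.38-fold for Gli3, 1.59-fold for Gli2, 1.31-fold for Gli1, and 1.26-fold for Ptch1. Dhh went the other way, with 16 counts in ROV and 2 in LOV.

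Correlations between members were taken on log2(CPM + 1) within libraries 1 to 7, as a description over 7 lines that share mice, with 15 pairs compared. The pairs named here are those with the largest absolute r. Smo and Gli3 had Pearson's r = 0.88 and Spearman's rho = 0.75, but r was 0.27 without the 2 lines farthest from the median Smo level. Smo and Gli2 had r = 0.58 and rho = 0.79, but r was 0.13 without the same 2 lines. Gli1 and Gli3 had r = −0.55 and rho = −0.64, and −0.66 without the 2 farthest lines. Gli2 and Gli3 had r = 0.55 and rho = 0.79, and r = 0.64 without the 2 farthest lines. Dhh and Ptch1 had r = 0.57 and rho = 0.61, and r = 0.35 without the 2 farthest lines. Ptch1 and Gli1, both targets of the pathway, had r = 0.56 and rho = 0.11, and r = 0.13 without the 2 farthest lines.

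The genes whose levels were most like those of Gli1 over the 11 lines were Slc6a8 (r = 0.90), Cdkn2d (0.89), C2cd2l (0.89), Ostm1 (0.89), Gm12002 (0.86), Gm14698 (0.86), Opcml (0.85), Gm6736 (0.85), Cryl1 (0.83), and Lamb2 (0.82), the 10 highest among genes with a mean of at least 1 CPM. None was another gene of the pathway. By the same measure, Dhh came to 0.30, Ptch1 to −0.07, Smo to −0.09, Gli2 to −0.09, and Gli3 to −0.72. These are values picked as the highest of 14665 genes over 11 libraries that fall into sets, and no test was made.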

How the data were processed

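Polyadenylated RNA of each line was sequenced as paired-end directional libraries. The authors aligned reads to GRCm38 with RNA STAR, removed duplicates with SAMtools RmDup, and deposited raw counts per gene from featureCounts, without normalization. The strand setting of the counting is not given in the sources used here, so reads of overlapping genes such as Gli1 and Arhgap9 (at most 2.54 CPM) may not be separated. Groups came from sample titles and library numbers from descriptions.

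CPM used library totals, and exon lengths and positions came from GENCODE M21. Tests used R 4.3.3 with edgeR 4.0.16 (TMM, filterByExpr, quasi-likelihood test, Benjamini-Hochberg adjustment over all genes tested) and, as an alternative, DESeq2 1.42.0. Only the edgeR fit was run on simulated counts. Those had independent lines, without the mouse pairs and library sets of these data, so they do not show how the test behaves here. The SE beside an edgeR log2 fold change is its absolute value divided by the square root of the F statistic. Levels used Python 3.11.15 and pandas 2.3.3. Other alternatives were library totals without TMM, no filter, summed lines of a mouse, each line left out, the mouse as a block, other library sets, and tables without muscle fiber and Y-linked genes. Each line is 1 culture, so p-values measure the spread between lines, some of which share a mouse.

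The members, lists, and the division into libraries 1 to 7 and 8 to 11 were chosen with earlier results of these data known. List genes were named where they passed a test, were highest or lowest, or did not overlap between sets, and the 10 genes most like Gli1 by r. Others named were chosen after their values were seen: those at an unadjusted p under 0.05, Ift88, Pgr, Spop, Krt7, Krt8, Krt18, Epcam, and Cdh1. Grk2, Foxf1, Foxl1, Fshr, Cyp19a1, and Acta1 were not matched by symbol and were not analysed here. A result on 1 gene of the pathway lists is not reported here.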

Additional observations from a re-analysis of the deposited data

Results flagged for a closer look

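In 2 cases, 1 of the 7 ovary lines stood far from the others by Dixon's test, in which the gap to the nearest line is divided by the range (critical value 0.568 for 7 lines). Dhh was at 33.7 CPM in F326 ROV, with a gap of 0.799 of the range, and Ptch1 was at 126 CPM in F339 ROV, with a gap of 0.832. Chance alone places about 1 in 20 groups of normally distributed values past this value, 8 members were examined on both sides, and the CPM values are skewed. On log2(CPM + 1), the gap was 0.43 of the range for Dhh, under the critical value, and 0.64 for Ptch1, above it.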

How the results depend on the processing

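Replicate numbers only name samples, but lines can be tied by mouse. With the mouse as a replicate block, chosen after seeing the data, each comparison rests on 1 mouse with lines in both groups (F319 or F326) and 2 or 1 residual degrees of freedom, and it again called 0 genes (1501 and 2965 at an unadjusted p under 0.05 with edgeR). Under this block Gli1 came to −2.10 and Ptch1 to 0.36 in the uterus lines, and Gli2 to 1.19, Gli3 to 1.39, and Hhip to −2.73 in the tumor lines, all opposite in direction to the fit without it. At an unadjusted edgeR p under 0.05 were Gli2, Gli3, and Dhh in the uterus lines, beside 8.6% of genes. In the tumor lines these were Dhh, Ptch1, Gli1, and Gli3, beside 18.2% of genes. Each of these rests on the 1 mouse with lines in both groups. For uterus against ovary, DESeq2 called 1 member (Dhh) and 1315 genes, and testing without the filter called 2 genes. Leaving out each line gave 0 to 1 genes, the 1 without the F333 uterus line. With library set as a covariate, Gli3 came to −0.56, Smo to −0.31, Hhip to 0.12, and Ptch1 to −1.41, and with libraries 8 to 11 only, Gli3 came to −0.61, Smo to −0.36, and Ptch1 to −1.46. With each line left out, Ptch1 ranged from −0.75 to 0.023 (without F339 ROV), Gli3 from −3.64 to 1.47, Gli1 from −1.67 to 1.05, and Gli2 from −5.91 to −2.24. For tumor against ovary, DESeq2 called 349 genes, and leaving out each line gave 0 to 1, the 1 without F318 ROV. Gli1 was 0.084 with all 7 ovary lines, and leaving out each line gave −1.49 to 0.55 for Gli1, −1.11 to 0.90 for Gli2, −2.85 to 0.14 for Gli3, −1.49 to 1.47 for Hhip, −4.06 to −2.12 for Dhh, −1.10 to −0.34 for Ptch1, and −1.76 to −0.26 for Smo. A pseudocount of 0.1 CPM moved the difference of Dhh between library sets from −1.85 to −4.03. From all 11 lines to libraries 1 to 7, r moved from −0.18 to 0.57 for Dhh and Ptch1, −0.07 to 0.56 for Ptch1 and Gli1, and 0.59 to 0.88 for Smo and Gli3. The cause was not tested in any of these. Counts of Ihh were at most 6 and those of Hhip at most 14 in any library, and the size of difference that these would show was not tested.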

Other observations

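Wt1 and Nr5a1, transcription factors of gonadal development, were chosen after their values were seen. The 3 lines with the most Dhh were those with the most Wt1, at 67.2 CPM in F326 ROV, 65.6 CPM in F364 ROV, and 72.7 CPM in F319 ROV, while the other 8 lines were between 0 and 5.85 CPM. Place 3 for Dhh is not fixed by the counts, since the counting intervals of F319 ROV and F364 LOV (Wt1 at 5.70 CPM) overlapped. Nr5a1 was at 38.4 CPM in F326 ROV, 18.6 CPM in F364 ROV, 14.4 CPM in F364 LOV, and 4.11 CPM in F318 ROV. The 7 remaining lines, F319 ROV among them, reached at most 0.36 CPM. No test was made.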
